A study of Homo sapiens with 6 samples.

Results

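Transcripts of 36 genes of the nuclear pore complex and its main transport receptors were followed in HCT116 cells, a human colorectal cancer line, after knockdown of PNO1, a nucleolar protein needed to mature the small ribosomal subunit. The members were fixed by name as 30 nucleoporins, 4 importin alpha genes, importin beta (KPNB1) and the exportin XPO1, and each was represented by the probe sets that carry its symbol and no other. That gave 113 probe sets of 35 genes, out of 49293 probe sets and 18132 genes on the array, because KPNA2 had no probe set with a symbol of its own and is not described. Cells of both groups were HCT116 cells transduced with a lentivirus for 72 h, which encoded either a control shRNA (sh-Ctrl, 3 samples) or a PNO1-directed one (sh-PNO1, 3 samples). RNA of each sample, 100 ng in total, was hybridised to 1 Affymetrix array. The labels do not say how many hairpins against PNO1 were used, nor whether each replicate was a culture of its own. The p-values therefore rest on the spread among 3 arrays a group, and that spread may be technical.

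The nuclear pore complex is a ring of stacked scaffolds that spans the nuclear envelope and is the route of exchange between nucleus and cytoplasm. Outer and inner scaffold rings hold it together, membrane proteins anchor it, nucleoporins rich in phenylalanine-glycine repeats fill the channel, a basket projects into the nucleus and filaments project into the cytoplasm. Importins carry cargo inward and exportins carry it outward, in a cycle set by the GTPase Ran, and XPO1 is known to export both ribosomal subunits. Pores are taken apart in mitosis and rebuilt as the envelope forms again.

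The target checked the labels. PNO1 intensity was 535, 535 and 532 on the sh-Ctrl arrays and 105, 108 and 105 on the sh-PNO1 arrays for its brightest probe set, and the other 2 probe sets kept 28.7% and 29.1% of the control signal. The exact two-sided permutation test over samples gave p = 0.1, and no smaller p can be had from 3 against 3. Of 8 epithelial markers all had group means between 232 and 3000, while 13 leukocyte, endothelial and fibroblast markers lay between 3.52 and 37.5. As a sign of RNA quality, the log2 signal at the 3′ end of ACTB minus that at its 5′ end was 2.25 on the sh-PNO1 replicate 2 array and 1.73 to 1.87 elsewhere. The median intensity was 25.6 to 25.9 on every array. Precision is limited by there being 3 arrays a group.

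More members fell than rose. Each gene was read from its brightest probe set, and passed at an adjusted p under 0.05 in limma, with Benjamini-Hochberg adjustment over all 49293 probe sets. Of 35 members 14 fell (40%), 1 rose and 20 did not pass, where 31.6% of all genes passed, 13.2% as lower and 18.4% as higher. The median log2 fold change, sh-PNO1 minus sh-Ctrl, was −0.09 over the members and 0.03 over all genes, and 25 of 35 members had a value below 0 against 42.8% of all genes. Of the 113 probe sets 40 fell and 9 rose, where 28.0% of all probe sets passed, 13.2% as lower and 14.8% as higher. The sh-PNO1 values were all under the sh-Ctrl values in 21 members and all over them in 5, where 18.4% and 26.3% of all genes did so. These shares were not matched for brightness. The dimmest member had a mean of 45.7 in its brighter group, above the median intensity of each array (25.6 to 25.9). In bulk RNA fewer cells of a cycling state and less RNA per cell cannot be told apart, and values are relative to the other transcripts of the same array. Cell cycle transcripts moved with the groups: 4 of 6 MCM helicase genes fell and 1 rose, and 9 of 12 mitosis genes fell and none rose, with a median of −0.35 for the latter. Their part in the values of the pore genes was not tested.

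**Figure D1:**
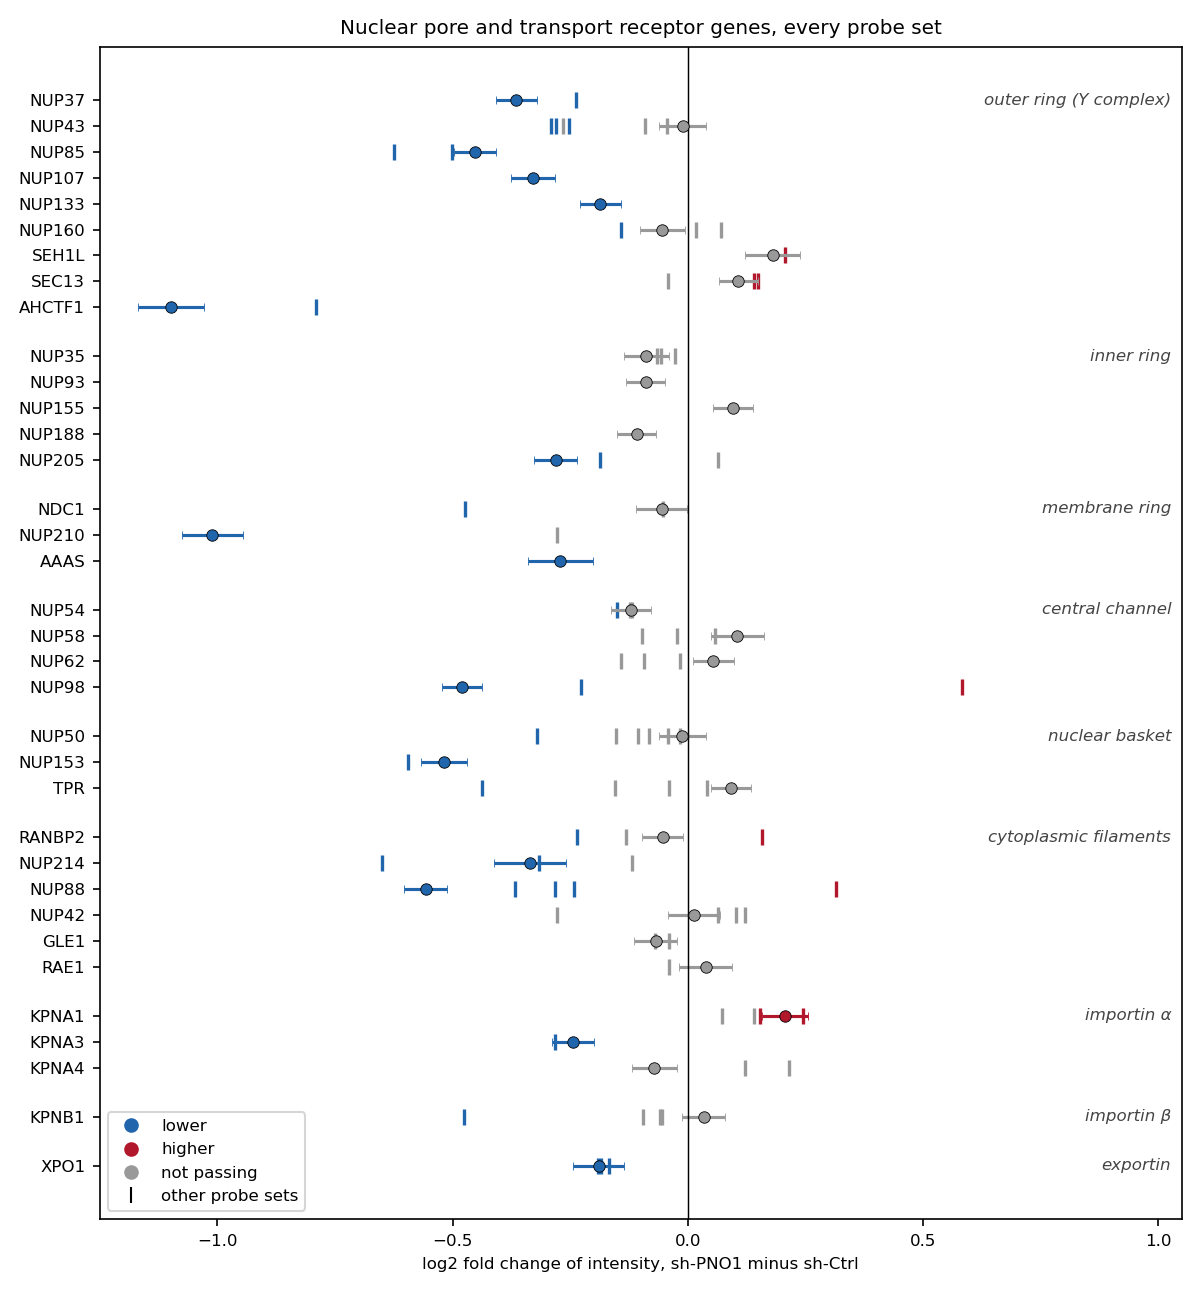
Log2 fold change of intensity (horizontal axis, sh-PNO1 minus sh-Ctrl) for the 35 measured members, grouped by place in the pore. Circles with standard error bars are the brightest probe set of each gene, short vertical marks are its other probe sets, and colour gives the call; AHCTF1 (−1.10) and NUP210 (−1.01) lie farthest to the left, and NUP98 has probe sets on both sides of 0.

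The scaffold, with 14 of the 35 measured members, held 6 of the 14 decreases, 5 of them in its outer ring. Of the 9 genes of the outer ring (Y complex) 5 fell and none rose, with a median log2 fold change of −0.19, while in the inner ring 1 of 5 fell, with a median of −0.09. Over both rings 6 of 14 fell (42.9%), with a median of −0.10, where 40% of all members and 13.2% of all genes fell. In the nuclear basket 1 of 3 fell, with a median of −0.01, and among the cytoplasmic filaments 2 of 6 fell (33.3%), with a median of −0.06. Of the 3 genes of the membrane ring and its anchor 2 fell, and of the 4 central channel genes 1 fell. No nucleoporin rose on its brightest probe set. Whether the parts differ from one another was not tested. The filament count was 1 without sh-Ctrl replicate 1 and also 1 without sh-Ctrl replicate 3, and the basket count was 3 with genes read from the probe set of largest interquartile range.

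**Figure D2:**
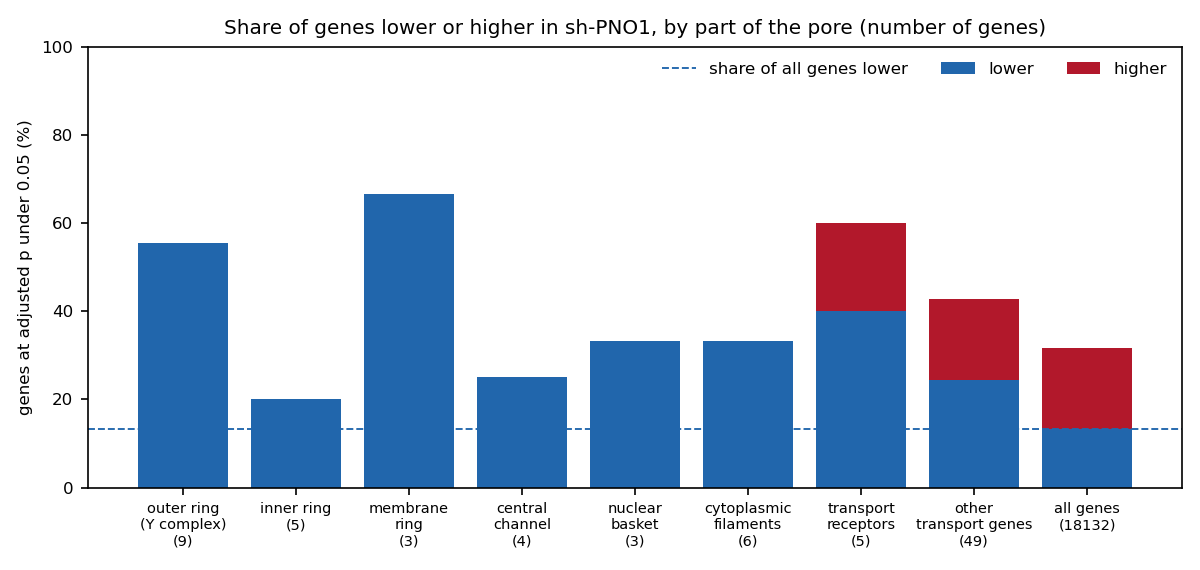
Percent of genes lower (blue) or higher (red) in sh-PNO1 at an adjusted p under 0.05, by part of the pore, with the number of genes in brackets; the dashed line is the share of all genes that fell, 13.2%. Each nucleoporin part lies above the line and has no red bar, and these parts hold 3 to 9 genes each. The blue bars of the inner ring, central channel and nuclear basket are 1 gene each, so 1 call puts these parts above the line. In the central channel that gene is NUP98, whose probe sets disagree.

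Promoter sequence was examined because many of these genes fell together. RefSeq promoters (GRCh38.p14), from 250 bases before to 50 bases after the first listed start, were found for 31 of the 36 members, 30 of them measured. None was found for AHCTF1, KPNB1, KPNA4, GLE1 and NUP43, so AHCTF1, which fell the most, is not in these counts. On both strands 6 motifs were searched, none of whose spellings contains another. The CCAAT box, spelled CCAAT or ATTGG, was in 8 of the 13 promoters of members that fell (61.5%) and in 4 of the 17 promoters of the other measured members (23.5%). It was in 36.4% of the promoters of 14425 genes on the array and in 34.6% of all 35116 promoters. The CHR element (TTTGAA or TTCGAA) was in 4 of 13 and 2 of 17, against 13.5% of genes on the array and 16.4% of all promoters. The ETS core CCGGAAG was in 4 of 13 and 7 of 17, against 14.6% and 10.3%. The E2F spellings TTTCCCGC, TTTCGCGC, TTTGCCGC and TTTGGCGC were in 0 of 13 and 1 of 17 (against 4.55% and 3.31%), the NRF1 core GCATGCGC in 1 of 13 and 2 of 17 (against 4.27% and 3.05%), and the GC box GGGCGG in 6 of 13 and 9 of 17 (against 59.7% and 45%). These are counts of letters in a window, and occupancy was not measured. Whether any of the motifs goes with the decreases was not tested.

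Promoter stretches are shown for 4 of the 8 members that fell and had a CCAAT box in the window. Each of the 4 holds the box within 150 bases before the start. NUP85, NUP205, NUP214 and XPO1 also had a box in the window and are not shown. The same holds for NUP35, NUP42, NUP93 and TPR, which had a box but were not among the members that fell. Each is written 5′ to 3′ on the gene's own strand and ends at the base before the start, with the CCAAT box in capitals (as ATTGG where it lies on the opposite strand). NUP88 lies at chr17:5419663-5419812 (minus strand) with matches that begin 77 and 46 bases before the start, NUP98 at chr11:3797547-3797696 (minus strand) with matches at 114 and 72, NUP37 at chr12:102120115-102120264 (minus strand) with 1 at 39, and NUP107 at chr12:68686828-68686977 (plus strand) with 1 at 138.
NUP88: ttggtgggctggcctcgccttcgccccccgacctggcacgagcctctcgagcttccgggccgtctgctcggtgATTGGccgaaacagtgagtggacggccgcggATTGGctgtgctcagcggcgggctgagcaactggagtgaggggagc
NUP98: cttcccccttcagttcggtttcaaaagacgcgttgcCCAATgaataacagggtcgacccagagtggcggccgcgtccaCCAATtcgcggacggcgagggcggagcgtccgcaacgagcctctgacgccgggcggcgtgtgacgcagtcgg
NUP37: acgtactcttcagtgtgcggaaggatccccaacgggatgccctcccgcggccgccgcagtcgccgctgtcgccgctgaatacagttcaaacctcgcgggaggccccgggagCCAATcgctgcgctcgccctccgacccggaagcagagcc
NUP107: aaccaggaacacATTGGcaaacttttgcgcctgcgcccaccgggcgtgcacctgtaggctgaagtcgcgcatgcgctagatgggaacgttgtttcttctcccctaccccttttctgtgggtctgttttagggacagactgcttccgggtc

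AHCTF1, also called ELYS, binds chromatin and recruits the outer ring when pores are rebuilt after mitosis, and it fell the most. Its intensity was 165, 165 and 152 in sh-Ctrl and 68.3, 80.8 and 76.6 in sh-PNO1. The groups were far apart, with sh-PNO1 at 46.7% of sh-Ctrl (−1.10 ± 0.07 SE on the log2 scale, n = 3 per group, limma adjusted p = 2.45e-05). The second AHCTF1 probe set fell as well (−0.79 ± 0.06 SE, adjusted p = 4.82e-05).

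NUP85, which lies in the short arm of the Y complex, had values of 481, 479.8 and 470.3 in sh-Ctrl and 339, 362 and 346 in sh-PNO1. All 3 of its probe sets fell, with log2 fold changes of −0.45, −0.50 and −0.63 (brightest: SE 0.04, limma adjusted p = 0.000203). NUP37, a propeller protein attached to the long arm and 1 of the 4 whose promoter is printed above, stood at 272, 259.9 and 268 in sh-Ctrl and 209, 210.1 and 202 in sh-PNO1. The groups did not overlap, and both NUP37 probe sets fell (brightest −0.36 ± 0.04 SE, limma adjusted p = 0.000526). NUP107, a stem protein that ties the complex together, stood at 489.8, 495 and 501 in sh-Ctrl and 376, 406 and 401 in sh-PNO1 on its only probe set (−0.33 ± 0.05 SE, limma adjusted p = 0.00126). Its stem partner NUP133 fell less (−0.19 ± 0.04 SE, limma adjusted p = 0.0154).

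The other 4 outer ring genes did not pass on their brightest probe set. NUP43, a further propeller protein, stood at −0.01 on the brightest of 7 probe sets, while 3 of the dimmer ones fell. NUP160, the long arm protein, stood at −0.05, with 1 of 4 probe sets lower. SEC13, a propeller shared with the COPII coat of the secretory pathway, stood at 0.11, with 2 of 4 probe sets higher. SEH1L, a propeller shared with a nutrient-sensing complex, stood at 0.18 (limma adjusted p = 0.0508); its second probe set rose. As a gene it passed as higher under 10 of 19 alternatives, among them averaging its probe sets and taking the more variable one.

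In the inner ring, NUP205, a large scaffold protein, fell by 0.28 on the log2 scale (SE 0.05, limma adjusted p = 0.0024), with 2 of 3 probe sets lower and −0.13 with the 3 averaged. NUP188, its structural relative, stood at −0.11 (adjusted p = 0.0907), and NUP93, the linker that joins ring subunits, at −0.09 (adjusted p = 0.151). NUP35, a membrane-binding member of the ring, stood at −0.09, and NUP155, a scaffold protein, at 0.10. None of the probe sets of these 4 genes passed.

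The membrane protein NUP210 was close behind AHCTF1. Its intensity was 95.3, 84 and 87.2 in sh-Ctrl and 47.1, 42.7 and 42.4 in sh-PNO1. The arrays with the knockdown stood at 49.6% of the control level, with no overlap (−1.01 ± 0.06 SE on the log2 scale, limma adjusted p = 2.46e-05). Its second probe set was dim, at 12 ± 0.234 against 9.98 ± 1.53 (SD, n = 3), and did not pass (−0.28, adjusted p = 0.0847); with both averaged NUP210 stood at −0.64 and passed. AAAS, the protein ALADIN that NDC1 holds at the pore, fell by 0.27 on the log2 scale (adjusted p = 0.0201), but did not pass without sh-Ctrl replicate 1 (adjusted p = 0.0671), sh-Ctrl replicate 3 (0.0792), sh-PNO1 replicate 1 (0.0523) or sh-PNO1 replicate 2 (0.0593). The transmembrane protein NDC1 itself stood at −0.06 and −0.05 on 2 probe sets that did not pass. The remaining NDC1 probe set stood at 377, 367 and 370.5 in sh-Ctrl and 260.4, 282 and 260.4 in sh-PNO1 (−0.47 ± 0.05 SE, limma adjusted p = 0.000242).

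**Figure D3:**
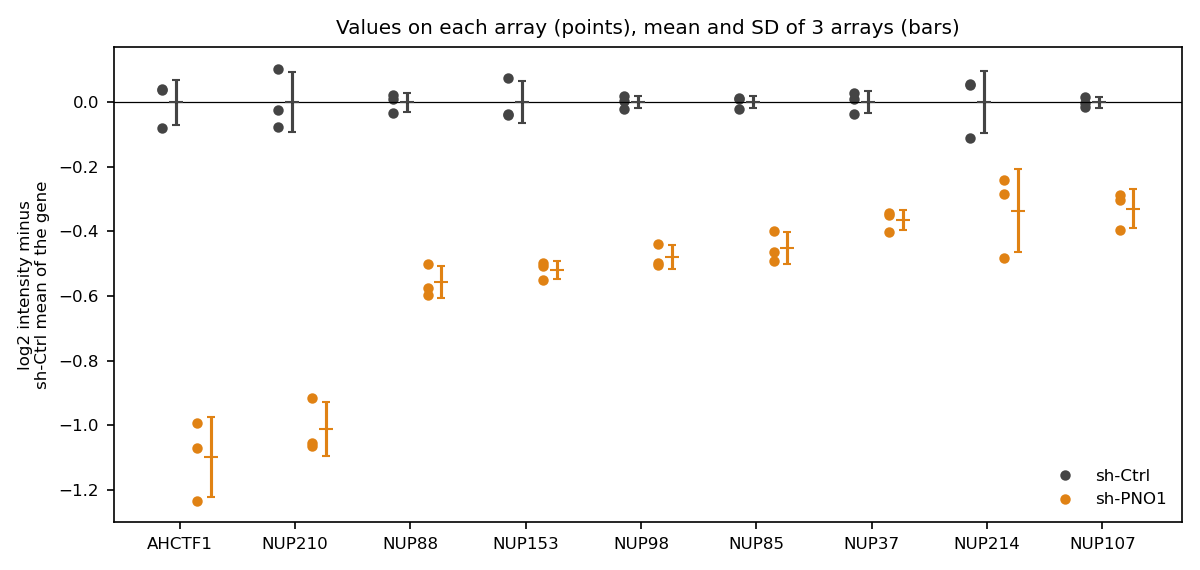
Log2 intensity on each array, minus the sh-Ctrl mean of the gene, for the 9 members that fell by 0.3 or more on the brightest probe set; bars are the mean and SD of 3 arrays. In each gene the 3 sh-PNO1 arrays (orange) lie below the 3 sh-Ctrl arrays (grey), and the gap is widest for AHCTF1 and NUP210.

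In the central channel, the NUP62, NUP54 and NUP58 proteins form a complex rich in repeats, and none of the 3 genes passed on its brightest probe set. NUP62 stood at 617, 619 and 638 in sh-Ctrl and 659, 655 and 631 in sh-PNO1. These values overlapped (log2 fold change 0.05 ± 0.04 SE, limma adjusted p = 0.405), and none of the 4 NUP62 probe sets passed. NUP58 stood at 0.10, with none of 4 passing. NUP54 stood at −0.12 (adjusted p = 0.0667), and all of its 4 probe sets lay at −0.12 to −0.15, of which 1 passed. As a gene it passed as lower under 6 of 19 alternatives, among them averaging its probe sets and taking the most variable one.

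NUP98 split by probe set. The gene encodes a repeat protein of the channel and, from a longer precursor, NUP96 of the Y complex. Its brightest probe set had intensities of 172, 174 and 169.6 in sh-Ctrl and 127, 121 and 122 in sh-PNO1 (log2 fold change −0.48 ± 0.04 SE, limma adjusted p = 0.000123), and the second also fell (−0.23 ± 0.06 SE, adjusted p = 0.0181). The dimmest of the 3 went the other way, from 54.1, 53.5 and 52.8 to 79.5, 82.8 and 78.1 (0.58 ± 0.04 SE, limma adjusted p = 5.09e-05). The groups did not overlap in any of the 3 probe sets. With the probe sets averaged NUP98 stood at −0.04 (adjusted p = 0.379), and with the most variable one it was called higher. Which transcript each probe set reads was not determined here.

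In the nuclear basket, NUP153 fell while TPR and NUP50 did not pass. NUP153, which anchors the basket and binds importins, had intensities of 421, 455 and 422 in sh-Ctrl and 304, 306 and 295 in sh-PNO1. The groups were well separated (log2 fold change −0.52 ± 0.05 SE, limma adjusted p = 0.000157), and the second probe set fell as well (−0.60 ± 0.07 SE). TPR, the coiled-coil protein that forms the basket filaments, stood at 440.2, 446 and 447 in sh-Ctrl and 459, 481 and 482 in sh-PNO1. These sh-PNO1 values lay above the sh-Ctrl values without passing (0.09 ± 0.04 SE, limma adjusted p = 0.155). Of its other 4 probe sets 1 dim one fell (29.2 ± 1.21 to 21.6 ± 1.23, SD, n = 3; −0.44). NUP50, a mobile basket protein that helps release import cargo, stood at −0.01, with 1 of 7 probe sets lower.

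Among the cytoplasmic filaments the NUP88 and NUP214 partners fell. NUP88 had intensities of 449, 432 and 445 in sh-Ctrl and 293, 312 and 297 in sh-PNO1 (log2 fold change −0.56 ± 0.05 SE, limma adjusted p = 8.11e-05). Of its 5 probe sets 4 fell, and the dimmest rose (25.8 ± 1.65 to 32.1 ± 1.72, SD, n = 3; 0.32, adjusted p = 0.00718); with all 5 averaged NUP88 stood at −0.23 and passed. NUP214, which with NUP88 docks export complexes, stood at 47.3, 42.3 and 47.5 in sh-Ctrl and 38.6, 32.7 and 37.5 in sh-PNO1. The groups did not overlap (−0.34 ± 0.08 SE, limma adjusted p = 0.0126), and 3 of 4 probe sets fell, the farthest with −0.65; the brightest did not pass without sh-Ctrl replicate 1 (adjusted p = 0.0563) or sh-Ctrl replicate 3 (0.057).

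The remaining 4 filament genes did not pass. RANBP2, the long filament protein with Ran-binding and SUMO ligase functions, stood at 572, 586 and 555 in sh-Ctrl and 555, 545 and 550.4 in sh-PNO1, where the groups nearly touched (log2 fold change −0.05 ± 0.04 SE, limma adjusted p = 0.405). Of its other 3 probe sets 1 fell (−0.24) and 1 rose (0.16), and RANBP2 has near-identical copies in the genome, so its signal is uncertain. GLE1, which activates the export helicase, stood at −0.07, its partner NUP42 at 0.01 and RAE1, a messenger RNA export factor that binds NUP98, at 0.04. No probe set of these 3 passed.

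**Figure D4:**
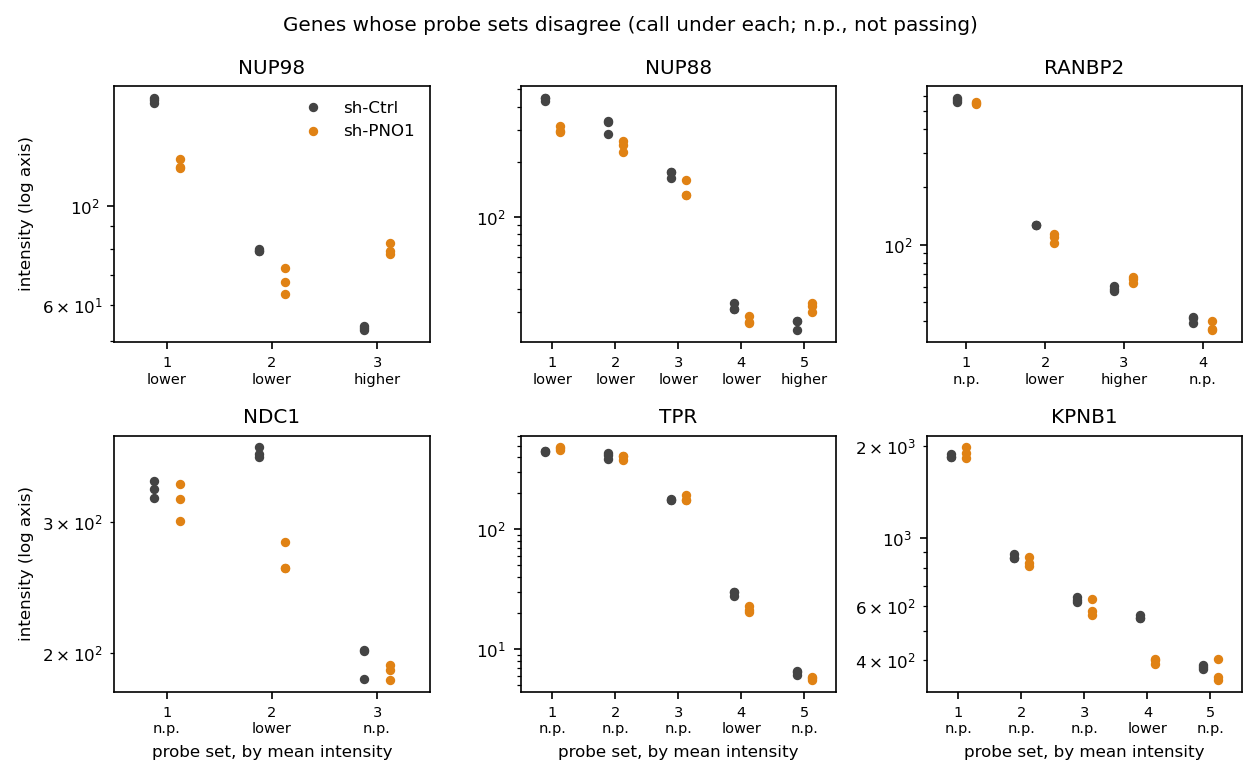
Intensity on each array (points, log axis) for every probe set of 6 members whose probe sets disagree, ordered by mean intensity, with the call under each probe set. In NUP98 probe sets 1 and 2 fell and 3 rose; in KPNB1 only probe set 4 passed.

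Of the 5 measured import and export receptors 2 fell and 1 rose, where 13.2% of all genes fell and 18.4% rose. Their log2 fold changes lay between −0.24 and 0.21 on the brightest probe sets. XPO1 had intensities of 397, 419.7 and 371 in sh-Ctrl and 345, 342 and 353 in sh-PNO1, with no overlap (log2 fold change −0.19 ± 0.05 SE, limma adjusted p = 0.0339). All 4 XPO1 probe sets fell, with log2 fold changes of −0.19 to −0.17. The brightest did not pass without sh-Ctrl replicate 1 (adjusted p = 0.094), sh-Ctrl replicate 2 (0.101), sh-PNO1 replicate 1 (0.0851), sh-PNO1 replicate 2 (0.094) or sh-PNO1 replicate 3 (0.0675). KPNB1, the carrier that takes importin alpha and its cargo through the pore, stood at 1835, 1837 and 1884 in sh-Ctrl and 1975, 1888 and 1825 in sh-PNO1. The groups overlapped (0.03 ± 0.05 SE, limma adjusted p = 0.645), and 3 other probe sets lay at −0.06 to −0.10 without passing. The remaining KPNB1 probe set went from 553 ± 7.38 to 398 ± 7.86 (SD, n = 3) and fell (−0.48 ± 0.04 SE, limma adjusted p = 0.000112).

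The importin alpha adaptors among the members, which read the classical import signal, went different ways. KPNA3 fell on both of its probe sets (brightest −0.24 ± 0.04 SE, limma adjusted p = 0.00447). KPNA1 rose (0.21 ± 0.05 SE, limma adjusted p = 0.0146), with 3 of 5 probe sets higher and all 5 above 0, but did not pass without sh-Ctrl replicate 1 (adjusted p = 0.0541) or sh-Ctrl replicate 2 (0.0549). KPNA4 stood at −0.07 with none of 3 passing.

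Of 49 other genes of nuclear transport, 12 fell and 9 rose, with a median log2 fold change of −0.01. The share that fell was 24.5%, where 13.2% of all genes did, and the share that rose was 18.4%, where 18.4% of all genes did. Among 14 other importins 4 fell and 1 rose. The gene that rose was KPNA6, a further importin alpha (0.22, limma adjusted p = 0.0192, 3 of 5 probe sets higher). IPO5, a carrier of ribosomal proteins and histones, fell by 0.55 on the log2 scale (SE 0.05, limma adjusted p = 8.56e-05, 3 of 3 probe sets lower). TNPO1, which imports RNA-binding proteins, fell by 0.47 (SE 0.04, limma adjusted p = 0.000146, 3 of 5). IPO8 (−0.35, 2 of 4 probe sets lower) and IPO9 (−0.31, 1 of 4) fell as well. With probe sets averaged TNPO1 stood at −0.25 and IPO8 at −0.23, and both passed. Of 6 other exportins 2 fell and 1 rose: CSE1L, which returns importin alpha to the cytoplasm, fell by 0.26, XPOT, which exports tRNA, stood at −0.18 (adjusted p = 0.0456), XPO6, the exportin for actin, at 0.13 (adjusted p = 0.04996, just under the threshold) and XPO5, which exports microRNA precursors, at 0.04. XPOT failed to pass with any 1 array left out (adjusted p = 0.0503 to 0.138), as did XPO6 (0.0647 to 0.13), and CSE1L did not pass without probe sets of the suffixes _x_at and _s_at (−0.15, adjusted p = 0.191).

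In the Ran cycle 1 of 6 genes passed, where 31.6% of all genes did. NUTF2, which carries Ran into the nucleus, rose (0.15, adjusted p = 0.0297, 4 of 8 probe sets), but did not pass without sh-Ctrl replicate 1 (adjusted p = 0.07), sh-Ctrl replicate 2 (0.0851), sh-PNO1 replicate 2 (0.0687) or sh-PNO1 replicate 3 (0.0666), nor with quantile normalisation repeated (0.0848). RCC1, the exchange factor of Ran, stood at 0.10, RANGAP1, its GTPase activator, at −0.10 and the cofactor RANBP3 at 0.17. Of 15 messenger RNA export genes 4 fell and 5 rose, where 13.2% of all genes fell and 18.4% rose. Of the THO complex genes THOC6 (−0.34) fell and THOC5 (0.26) and THOC3 (0.43) rose, as did ENY2 (0.19), a subunit of the TREX-2 complex. The only THOC3 probe set was dim, at 15.3 ± 1.5 against 20.7 ± 2.3 (SD, n = 3), within the range of the markers of other cell types, and its log2 fold change was 0.23 with 16 added to the intensities. Of 8 other pore proteins 2 fell and 1 rose, against the same shares of all genes. NUP62CL, a relative of NUP62, fell by 0.51, the spindle checkpoint protein MAD1L1, which binds TPR, rose by 0.33, and MAD2L1 stood at −0.24 (adjusted p = 0.0597). MAD1L1 did not pass without sh-Ctrl replicate 1 (adjusted p = 0.05004), sh-PNO1 replicate 2 (0.0552) or sh-PNO1 replicate 3 (0.0615). TMEM33, a membrane protein of the envelope, fell by 0.26 on its brightest probe set, while its second rose by 0.27; with all 4 averaged TMEM33 stood at −0.02 (adjusted p = 0.705).

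Probe sets of a gene gave different answers for several members. Of the 14 members that fell, 9 had every probe set lower, AHCTF1, NUP37, NUP85, NUP107, NUP133, NUP153, AAAS, KPNA3 and XPO1, of which NUP107, NUP133 and AAAS have only 1. The other 5 had at least 1 probe set that did not fall. In 3 members, NUP98, NUP88 and RANBP2, probe sets passed in both directions. Of the 20 that did not pass on the brightest probe set, 8 had at least 1 lower probe set and 3 at least 1 higher one. Brightness bears on how far a fold can be read. The 23 background probe sets of the array had mean intensities of 2.53 to 773 (median 4.24), and of the 35 members SEC13 and KPNB1 had a group mean above all 23, while 33 lay above at least 20. NUP214 (above 18) and AAAS (above 19) were the dimmest by this measure, which takes the higher group mean of each gene. In sh-PNO1 alone NUP210 had a mean of 44.1, below AAAS at 55.1. Folds of dim probe sets can be understated.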

How the data were processed

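The authors' deposited table gives a linear intensity for every probe set on each array. RMA is the method named in the submitters' processing notes; software and version: not given in the sources used here. RMA usually returns log2 values; the deposited intensities reached 10038, so log2 was taken here. Groups and replicate numbers came from the sample titles. Of 49395 probe sets 102 were controls, 44988 had 1 gene symbol, 1832 several and 2473 none in the platform table. All 49293 others were fitted together in limma 3.58.1 (R 4.3.3, lmFit and eBayes, no covariate), with Benjamini-Hochberg adjustment and a threshold of 0.05. The step was also run on simulated data with far fewer changed probe sets than passed here, so that run does not bear on these calls. Members, lists, parts and motifs were chosen with earlier results of these data known, so no set test was run. All members were named, with values on every array for those that passed with a change of 0.3 or more and for NUP98, NUP62, TPR, NUP153, RANBP2, KPNB1 and XPO1, and for the other transport lists up to 4 genes each with the smallest adjusted p. KPNA6 was named besides, after its values were seen. RefSeq symbols matched for 35 of 35 measured members. NXF1 and SENP2, on the lists of other genes, were not analysed here. The alternatives are listed in the closing section.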

Additional observations from a re-analysis of the deposited data

How the results depend on the processing

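Over 19 alternatives, 11 of the 35 members kept their call in all. AHCTF1, NUP210, NUP153 and NUP88 did so as lower, and the rest of the 11 as not passing. Of 665 values 30 lost a call, 33 gained one and 4 turned. Of the 30 losses 15 came from the stricter thresholds and 13 from leaving out an array. NUP98 turned to 0.58 with the most variable probe set, TPR to −0.44 and KPNB1 to −0.48; KPNB1 turned to −0.13 (adjusted p = 0.0379) with probe sets averaged. TMEM33 turned to 0.27 with the most variable probe set and, also 0.27, without _x_at and _s_at probe sets.

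The 14 members that fell became 5 with limma's treat, which asks for a log2 change beyond 0.3. The 1 that rose became 3 with trended, robust eBayes, 2 with array weights, quantile normalisation repeated, equal array medians, the dimmest 30% of probe sets left out, probe sets averaged or 1 probe set per gene fitted alone, 5 with log2 of intensity plus 16, 4 with the most variable probe set, and 0 at an adjusted p under 0.01 or with treat. Scaffold decreases numbered 1 with treat, filament decreases 1 at an adjusted p under 0.01 and 1 with treat, and basket decreases 3 with the most variable probe set. Member probe sets lower numbered 22 at 0.01 and 11 with treat, and higher 3 at 0.01, 1 with treat and 5 without _x_at and _s_at probe sets. Other transport genes lower numbered 7 without those suffixes and 2 with treat, and higher 1 at 0.01 and 0 with treat. Over all probe sets, without those suffixes 4136 were lower and 4575 higher, at 0.01 4294 and 4372, and with treat 1599 and 951; over all genes, with treat 652 were lower and 492 higher, and at 0.01 2123 were higher. Some of these settings use fewer features or a stricter rule, and the causes of the shifts were not tested.

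With each array left out, members that fell numbered 11 to 13 and that rose 0 to 2 (0 without sh-Ctrl replicate 1 or 2), scaffold decreases 6 to 6, filament decreases 1 to 2, member probe sets lower 29 to 34 and higher 3 to 7, other transport genes lower 8 to 10 and higher 4 to 6, and PNO1 −2.35 to −2.32. All genes lower ranged over 1957 to 2137 and higher over 2642 to 2926, and all probe sets lower over 5220 to 5662 and higher over 5614 to 6274.

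Same-numbered samples deviated together at r = −0.04, 0.10 and −0.03, against at most 0.09, −0.04 and 0.07 with samples of another number. With so few arrays these values cannot decide whether the numbers pair the samples. With the replicate number as a block 13 members fell and 1 rose, and XPO1 did not pass (adjusted p = 0.062). Dim probe sets near background limit what folds can show.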

Other observations

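Among the other transport genes 3 had probe sets that passed in both directions, RAN, XPO4 and TMEM33; they were singled out after their values were seen. RAN, the GTPase that gives transport its direction, stood at −0.07 on its brightest probe set (3229 ± 8.46 to 3082 ± 29.5, SD, n = 3) and at −0.13 on the second (limma adjusted p = 0.0432), while the third rose from 717 ± 20.7 to 905 ± 9.08 (log2 fold change 0.34, limma adjusted p = 0.000757). XPO4, an exportin that also imports some transcription factors, stood at 0.01 on its brightest probe set and rose on the second from 47 ± 0.194 to 76.1 ± 6.29 (0.69, limma adjusted p = 0.000134), while the fourth fell by 0.22 on the log2 scale.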
